A study of Mus musculus with 93 samples.

Results

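The Toll-like receptors described here were 10 genes, Tlr1, Tlr2, Tlr3, Tlr4, Tlr5, Tlr6, Tlr7, Tlr8, Tlr9 and Tlr13. They were chosen by name, as the rows whose Ensembl identifier maps to these symbols, out of 53465 genes in the count table. Their liver mRNA was measured by RNA-seq in 93 male mice of 7 inbred strains, each kept at thermoneutrality (TN, 30°C) from 6 weeks of age. From 7 weeks of age the mice received a western-style diet (WD, 40% of energy from fat) or its matched control diet (CD, 10% of energy from fat), and livers were taken after 17 weeks of diet, at 24 weeks of age. The question was whether the genetic background changes the response of the liver to WD.

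No group carried a transgene or an induced mutation, so a group was fully given by its strain and its diet. C57BL/6J had 8 mice on CD and 8 on WD, DBA/2J 6 and 7, A/J 5 and 6, 129S1/SvImJ 7 and 6, WSB/EiJ 6 and 6, CAST/EiJ 7 and 8, and PWK/PhJ 6 and 7. The first 4 strains are domesticated and the last 3 wild-derived. All mice of a strain are genetically alike, so a strain is 1 genotype, and males only were studied. Whole pieces of liver were extracted, and in such bulk RNA fewer cells of a type and less RNA per cell cannot be told apart.

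Each mouse had between 40020424 and 49894856 reads assigned to genes (median 46618609). Reads of every strain were mapped to the C57BL/6J genome, and the median share of unmapped reads ran from 2.20% in A/J to 12.5% in CAST/EiJ. It was higher on WD than on CD in PWK/PhJ (8.26% against 3.71%) and in WSB/EiJ (8.18% against 4.14%), and its part in the results was not tested. All 6 hepatocyte markers (Alb, Apoa1, Ttr, Cps1, Serpina1a and Hnf4a) were detected, with a summed level between 57641 and 211156 CPM (reads scaled to library size). In PWK/PhJ on CD, mouse 5 stood apart with low general macrophage and Kupffer cell markers: Clec4f, a Kupffer cell lectin, was at 17.9 CPM there and at 77.7 to 126 CPM in the other 5 mice. Stab2, an endothelial marker, was also low in this mouse (29.7 against 56.7 to 84.3 CPM). Spp1, a marker of recruited macrophages, was not (116 against 55.8 to 135 CPM). In C57BL/6J on CD, mouse 2 had high Trem2, a receptor of lipid-associated macrophages, at 15.3 CPM against 0.495 to 2.89 CPM. Krt19, a bile duct marker, was also high there (10.5 against 0.786 to 2.24 CPM). Clec4f (37.9 against 76.2 to 126 CPM) and Stab2 (38.6 against 63.1 to 80.2 CPM) were low. Without the first of these mice all 8 receptors called in PWK/PhJ were still called, and without the second all 9 in C57BL/6J. RNA integrity numbers lay between 7 and 9.7.

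Toll-like receptors are membrane sensors of microbial molecules and of debris from dying cells. Tlr1, Tlr2, Tlr4, Tlr5 and Tlr6 sit mostly at the cell surface, where Tlr2 pairs with Tlr1 or Tlr6 to bind bacterial lipopeptides, Tlr4 binds lipopolysaccharide with its partner Ly96, and Tlr5 binds flagellin. Tlr3, Tlr7, Tlr8, Tlr9 and Tlr13 sit in endosomes and sense nucleic acids, namely double-stranded RNA (Tlr3), single-stranded RNA (Tlr7 and Tlr8), unmethylated CpG DNA (Tlr9) and bacterial ribosomal RNA (Tlr13). All but Tlr3 signal through the adaptor Myd88, Tlr3 and Tlr4 through Ticam1, and both routes end at NF-kB and interferon regulatory factors. In the liver they are best known from Kupffer cells and other macrophages, which meet gut-derived products from the portal blood.

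Tlr1 and Tlr6 lie next to each other on the minus strand of chromosome 5 (GRCm38, 64924679-64933563 for Tlr1 and 64952031-64960097 for Tlr6). Their coding exons hold a run of 229 identical bases, at chr5:64925537-64925765 in Tlr1 and at chr5:64953828-64954056 in Tlr6. It is shown because reads that lie wholly inside it cannot be assigned to either gene. It was taken from the GENCODE transcripts and is written 5′ to 3′ on the coding strand:
Tlr1 and Tlr6 shared run: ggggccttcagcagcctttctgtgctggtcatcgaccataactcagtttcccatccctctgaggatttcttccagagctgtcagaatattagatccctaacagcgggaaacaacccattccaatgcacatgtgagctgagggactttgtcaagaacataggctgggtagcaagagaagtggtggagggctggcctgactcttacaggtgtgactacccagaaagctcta
Of all 100-base stretches of the exons, 7.89% in Tlr1 and 7.09% in Tlr6 also occurred in the other gene. Tlr3 shared 3.32% of them with Gm45542, a gene on the opposite strand with 0 reads in every mouse, and none of the other 7 receptors shared any. Most of Tlr1 and of Tlr6 was thus not shared with the other gene.

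The other members lie apart, on GRCm38 at chr3:83836272-83841767 (Tlr2), chr8:45395665-45411080 (Tlr3), chr4:66827584-66930284 (Tlr4), chr1:182954788-182976044 (Tlr5) and chr9:106222598-106226883 (Tlr9). Tlr7 (chrX:167304929-167330558) and Tlr8 (chrX:167242696-167264329) are neighbours on the X chromosome, which also carries Tlr13 (chrX:106143204-106160493).

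RefSeq promoters of GRCm38.p6 were at hand for 8 of the 10 receptors and not for Tlr4 and Tlr7. The 250 bases before the start of Tlr8 (chrX:167264330-167264579, minus strand) and Tlr9 (chr9:106222348-106222597, plus strand) are shown. Both are endosomal members, and Tlr8 was called in 3 strains and Tlr9 in 4. Those of Tlr5 (chr1:182954538-182954787, plus strand) are shown for the most abundant member per length over all mice. Capitals mark matches to any of 6 motifs, searched on both strands.
Tlr8: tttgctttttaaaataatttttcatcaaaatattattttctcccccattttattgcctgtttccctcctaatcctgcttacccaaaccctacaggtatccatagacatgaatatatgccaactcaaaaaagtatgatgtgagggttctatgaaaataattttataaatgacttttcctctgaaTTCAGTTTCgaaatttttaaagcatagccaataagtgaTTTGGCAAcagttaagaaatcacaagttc
Tlr9: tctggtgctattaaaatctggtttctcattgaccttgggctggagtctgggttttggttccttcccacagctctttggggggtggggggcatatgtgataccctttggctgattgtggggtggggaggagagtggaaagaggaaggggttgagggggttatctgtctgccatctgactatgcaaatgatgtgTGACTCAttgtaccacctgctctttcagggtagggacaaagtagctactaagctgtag
Tlr5: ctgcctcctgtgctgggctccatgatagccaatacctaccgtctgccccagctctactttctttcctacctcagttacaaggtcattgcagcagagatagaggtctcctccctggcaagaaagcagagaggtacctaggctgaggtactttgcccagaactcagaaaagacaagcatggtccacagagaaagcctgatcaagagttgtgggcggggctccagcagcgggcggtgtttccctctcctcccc
In Tlr8 the capitals are a match to the interferon response motif (GAAANNGAA, found in 7.13% of 32851 promoter windows of this length), which ended 59 bases before the start, and a C/EBP motif (TTGCNNAA, 9.56%). In Tlr9 they are an AP-1 motif (TGANTCA, 6.75%) between 58 and 52 bases before the start. The Tlr5 window held none of the 6 motifs, nor did that of Tlr13, a receptor called in the same 3 strains as Tlr8. The other motifs were PU.1 (GAGGAAGT, 2.44%), NF-kB (GGGANTTCC, 1.43%) and HNF4 (AAAGTCCA, 1.01%). Of the windows not shown, Tlr2 held a palindromic NF-kB match, counted once on each strand and overlapping itself, and an HNF4 match, while 1 of the 2 starts of Tlr1 held a PU.1 match. In 1 of the 2 windows of Tlr6 there were 2 overlapping interferon response matches and a C/EBP match, and the Tlr3 window held a C/EBP match. These matches describe the letters only, and binding was not measured.

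Per length and pooled over all mice, Tlr5 and Tlr3 had the highest median levels and Tlr9 and Tlr1 the lowest. The median over the 93 mice was 2.32 CPM per kb of exon for Tlr5, 2.15 for Tlr3, 1.33 for Tlr2, 0.947 for Tlr13, 0.836 for Tlr6, 0.639 for Tlr7, 0.597 for Tlr8, 0.380 for Tlr4, 0.230 for Tlr1 and 0.167 for Tlr9. The order differed between groups: the highest median in PWK/PhJ on WD was that of Tlr2 (3.34 CPM per kb), Tlr1 in C57BL/6J on WD (1.71) was above Tlr4, Tlr6, Tlr7, Tlr8 and Tlr9, and Tlr5 in CAST/EiJ on WD (0.526) was below Tlr2, Tlr3 and Tlr6. Tlr3 lay between 0.855 and 3.23 CPM per kb in single mice, and Tlr1 ran from 0.0314 to 4.35. Tlr9 had fewer than 10 reads in 16 of the 93 mice, Tlr1 in 6 and Tlr8 in 1, and all 10 genes passed the filter on low counts.

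**Figure D1:**
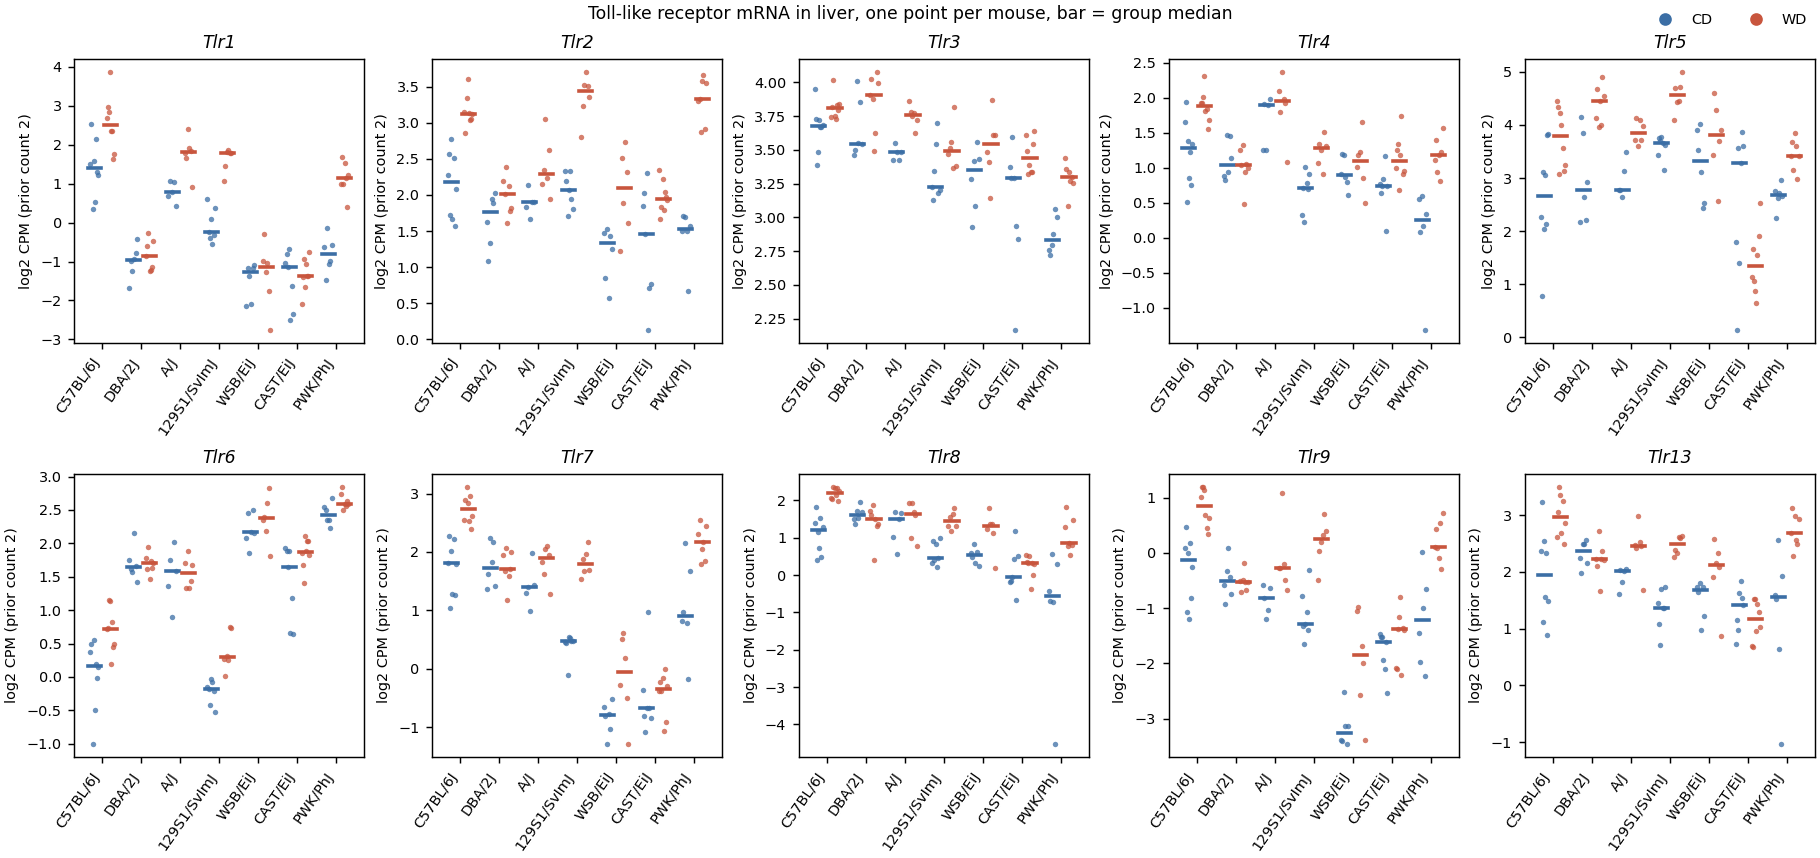
Level of each of the 10 receptors in the liver, as log2 CPM with a prior count of 2 on the y axis and strain on the x axis, with 1 point per mouse (blue CD, red WD) and a bar at each group median. For most receptors the red points lie above the blue in PWK/PhJ, C57BL/6J and 129S1/SvImJ, the low blue Tlr8 point at the right is the PWK/PhJ mouse without a Tlr8 read, and Tlr5 of CAST/EiJ has its red points below its upper 4 blue ones.

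WD raised most Toll-like receptors in 3 strains, namely PWK/PhJ, C57BL/6J and 129S1/SvImJ, and few in the other 4. Higher on WD (limma-voom, adjusted p below 0.05 over the 19110 genes tested) were 8 of 10 receptors in PWK/PhJ, 9 in C57BL/6J and 9 in 129S1/SvImJ, where 15.1%, 14.3% and 14.5% of all genes were. In DBA/2J 1 receptor was higher (Tlr5), against 10.2% of all genes, and in A/J 1 (Tlr1), against 4.39%. In WSB/EiJ 2 were higher (Tlr2 and Tlr9), against 4.97%, and in CAST/EiJ 3 (Tlr2, Tlr3 and Tlr6), against 9.77%. Lower on WD were 0 receptors in every strain, where 11.9% of all genes were lower in C57BL/6J, 7.77% in DBA/2J, 4.64% in A/J, 13.6% in 129S1/SvImJ, 3.97% in WSB/EiJ, 9.73% in CAST/EiJ and 14.5% in PWK/PhJ. In CAST/EiJ, edgeR and DESeq2 each called 1 receptor lower, Tlr5, the 1 receptor lower at an unadjusted p below 0.05 in limma (0.017).

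The median log2 fold change over the 10 receptors was 1.33 in PWK/PhJ, 1.02 in C57BL/6J and 1.06 in 129S1/SvImJ, whereas it was 0.49 in WSB/EiJ, 0.45 in A/J, 0.20 in CAST/EiJ and -0.01 in DBA/2J. Without CD mouse 5 the PWK/PhJ median was 0.99. Over all genes the median lay between -0.01 and 0.02 in the 7 strains. The levels of all WD mice lay above those of all CD mice for 7 receptors in 129S1/SvImJ, 5 in PWK/PhJ, 3 in C57BL/6J and 2 in A/J, but for 0 in DBA/2J, WSB/EiJ and CAST/EiJ.

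Whether the effect of WD differed between the 7 strains was tested by an F test in the same fit. It passed at an adjusted p below 0.05 for 8 of 10 receptors, where 37.5% of all genes passed. Tlr8 (adjusted p = 5e-05), Tlr7 (9.4e-05) and Tlr2 (0.00014) had the smallest values. Tlr6 (adjusted p = 0.068) and Tlr3 (0.6) did not pass.

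**Figure D2:**
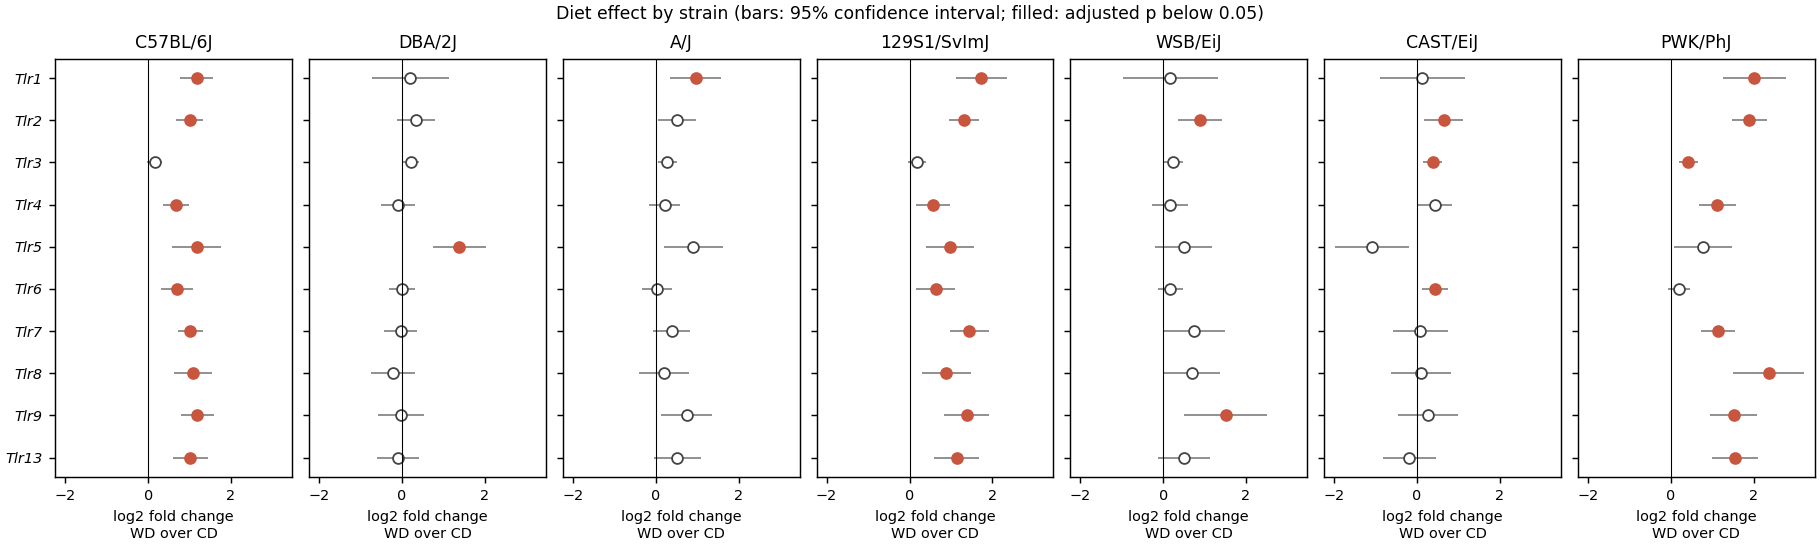
Log2 fold change of WD over CD (x axis) for the 10 receptors (rows) in each strain (panels), with 95% confidence intervals from limma as bars and filled points where the adjusted p was below 0.05. Filled points stand for 9 receptors in C57BL/6J and 129S1/SvImJ and 8 in PWK/PhJ, DBA/2J has 1 filled point (Tlr5), and Tlr5 of CAST/EiJ lies left of 0.

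Among the surface receptors, Tlr2 was upregulated in the most strains, 5 of 7. In PWK/PhJ its level was 1.54, 2.84 and 3.24 CPM (lowest, median and highest mouse) on CD and 7.30, 10.1 and 12.6 CPM on WD. In 129S1/SvImJ it was 3.23, 4.14 and 5.02 CPM on CD and 6.93, 10.8 and 13 CPM on WD. In C57BL/6J it was 2.93, 4.51 and 6.83 CPM on CD and 7.18, 8.69 and 12.1 CPM on WD. In these 3 strains every WD mouse was above every CD mouse. The log2 fold change was 1.89 ± 0.21 (SE) in PWK/PhJ (adjusted p = 1.3e-11), 1.01 ± 0.16 in C57BL/6J (1.2e-06) and 1.31 ± 0.19 in 129S1/SvImJ (5.4e-08).

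In WSB/EiJ Tlr2 was 1.45, 2.49 and 2.85 CPM on CD and 2.29, 4.30 and 6.62 CPM on WD, and 5 of 6 WD mice were above all CD mice (log2 fold change 0.89 ± 0.26, adjusted p = 0.02). In CAST/EiJ it was 1.05, 2.69 and 4.91 CPM on CD and 3.12, 3.82 and 5.04 CPM on WD, so that 1 of 8 WD mice was above all CD mice. Its log2 fold change there was 0.65 ± 0.24 (adjusted p = 0.042), and 0.45 ± 0.23 (adjusted p = 0.21) without mouse 5 on CD, which had the lowest level. CD mice 6 and 7, of the same cohort 4 (cohorts are batches of mice in the labels), were also low, at 1.59 and 1.65 CPM. CD mouse 4 of that cohort was the highest. Within cohorts 1, 3 and 4 the difference of mean log2 CPM was 0.10, 0.27 and 1.00, with 1 CD mouse in cohort 1. Tlr2 was called there in 4 of 10 alternative runs.

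Tlr1 and Tlr6, which pair with Tlr2 in the lipopeptide sensor, were highest in different strains. On CD, Tlr1 was highest in C57BL/6J, at 1.24, 2.61 and 5.75 CPM (lowest, median and highest mouse). In A/J the 5 CD mice were at 1.57, 2.06, 1.67, 2.00 and 1.29 CPM, and in 129S1/SvImJ the values were 0.640, 0.797 and 1.48 CPM. The group medians were 0.534 CPM in PWK/PhJ, 0.469 in DBA/2J, 0.407 in CAST/EiJ and 0.371 in WSB/EiJ, and neighbours in this order overlapped. Tlr6 was highest in PWK/PhJ on CD, at 4.65, 5.33 and 6.35 CPM. It was 3.58, 4.44 and 5.60 CPM in WSB/EiJ, and DBA/2J, A/J and CAST/EiJ had medians of 3.07, 2.95 and 3.10 CPM. It was lowest in C57BL/6J, at 0.453, 1.08 and 1.42 CPM, and in 129S1/SvImJ, at 0.653, 0.839 and 0.932 CPM. Neighbours in the order of Tlr6 overlapped except A/J and C57BL/6J, whose ranges were apart.

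Per kb of exon, the ratio of Tlr6 to Tlr1 on CD was 0.378 in C57BL/6J (median of 8 mice, range 0.213 to 0.432) and 12.3 in WSB/EiJ (median of 6, range 9.38 to 21.1). For 129S1/SvImJ it was 0.871, and it was 1.45 in A/J, 6.46 in DBA/2J, 7.10 in CAST/EiJ and 8.99 in PWK/PhJ. Reads of all strains were mapped to the C57BL/6J genome, and the part of this in the ratios was not tested. The F test for a difference between strains on CD passed for all 10 receptors, where 93.7% of all genes passed, and the largest F among the receptors was that of Tlr6 (adjusted p = 8.8e-28).

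On WD, Tlr1 was upregulated in 4 strains. In PWK/PhJ it went from 0.318, 0.534 and 0.865 CPM on CD to 1.27, 2.15 and 3.20 CPM on WD, and in 129S1/SvImJ the WD mice were at 2.04, 3.41 and 3.63 CPM. The groups did not overlap in either strain, and the log2 fold change was 2.02 ± 0.38 (adjusted p = 1.6e-05) and 1.74 ± 0.31 (1.2e-05). The WD mice of C57BL/6J were at 3.06, 5.72 and 14.5 CPM, 4 of 8 above all CD mice (1.17 ± 0.20, adjusted p = 4.9e-06). In A/J they were at 1.85, 3.48 and 5.20 CPM, 5 of 6 above all CD mice (0.96 ± 0.31, adjusted p = 0.033). Without CD mouse 1, 3 or 5 of A/J the adjusted p of Tlr1 was above 0.05. In DBA/2J, WSB/EiJ and CAST/EiJ the log2 fold change of Tlr1 was between 0.13 and 0.20, with SE from 0.47 to 0.58.

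On WD, Tlr6 was upregulated in C57BL/6J (by 0.70 ± 0.19, adjusted p = 0.0036), 129S1/SvImJ (0.63 ± 0.24, 0.035) and CAST/EiJ (0.43 ± 0.16, 0.044). The first 2 of these strains had the lowest Tlr6 on CD. In PWK/PhJ, where Tlr1 rose 4.05-fold, the log2 fold change of Tlr6 was 0.20 ± 0.13 (adjusted p = 0.25), and the ratio of Tlr6 to Tlr1 per kb went from 8.99 on CD to 2.44 on WD. In CAST/EiJ the call of Tlr6 was lost without CD mouse 5 (0.31 ± 0.16, adjusted p = 0.21) and passed in 4 of 10 alternative runs. Within cohorts 1, 3 and 4 the difference of mean log2 CPM was -0.29, 0.23 and 0.87, with 1 CD mouse in cohort 1.

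**Figure D3:**
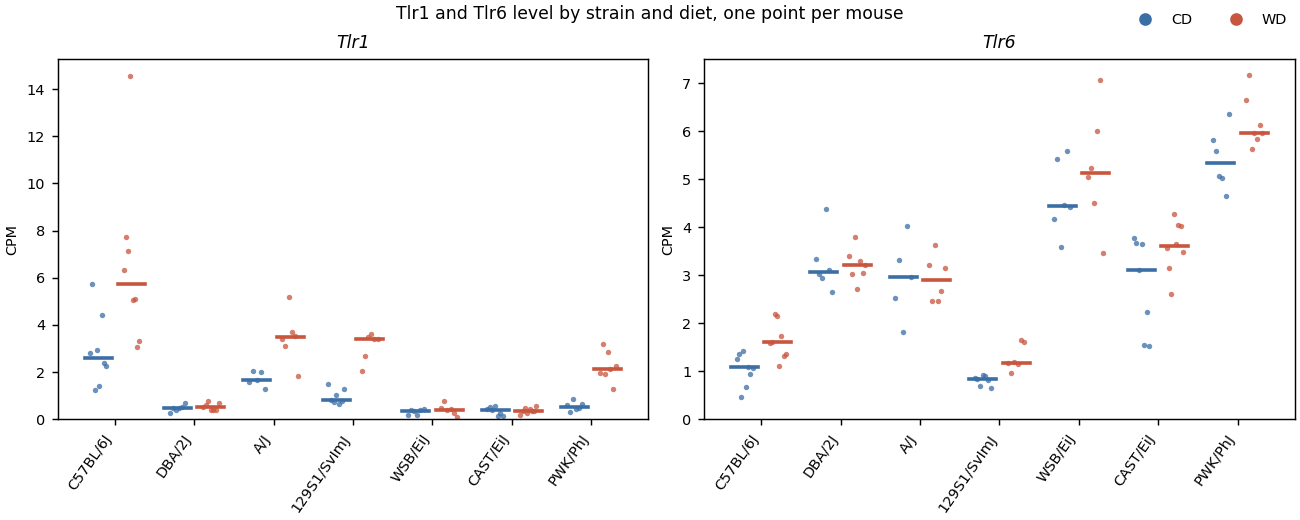
Level of Tlr1 (left) and Tlr6 (right) in CPM on a linear y axis that starts at 0, by strain on the x axis, with 1 point per mouse (blue CD, red WD) and bars at group medians. Tlr1 is highest in C57BL/6J and near the bottom in DBA/2J, WSB/EiJ and CAST/EiJ on both diets, whereas Tlr6 is lowest in C57BL/6J and 129S1/SvImJ and highest in PWK/PhJ.

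Tlr4, the lipopolysaccharide receptor, was upregulated in 3 strains. In PWK/PhJ it was 0.359, 1.15 and 1.47 CPM on CD and 1.70, 2.23 and 2.91 CPM on WD, with no overlap. In C57BL/6J it was 1.38, 2.39 and 3.80 CPM on CD and 2.89, 3.65 and 4.89 CPM on WD, where 2 of 8 WD mice were above all CD mice. In 129S1/SvImJ it was 1.13, 1.59 and 1.97 CPM on CD and 1.83, 2.38 and 2.79 CPM on WD, with 5 of 6 WD mice above. The log2 fold change was 1.13 ± 0.23 (adjusted p = 5e-05), 0.67 ± 0.16 (0.00049) and 0.57 ± 0.21 (0.029) in this order. In PWK/PhJ it was 0.84 ± 0.21 without CD mouse 5, the lowest. In the other 4 strains it was between -0.09 and 0.43. The highest level of Tlr4 on CD was that of A/J, with mice at 2.33, 3.71, 2.35, 3.67 and 3.93 CPM, and it did not change detectably there on WD (0.21 ± 0.19, 95% interval from -0.16 to 0.58).

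Tlr5, the flagellin receptor, was upregulated in 3 strains. It was upregulated in DBA/2J, where no other receptor was, from 4.48, 6.85 and 17.6 CPM on CD to 15.5, 21.9 and 29.7 CPM on WD (log2 fold change 1.39 ± 0.32, adjusted p = 0.00092). 129S1/SvImJ mice went from 8.88, 12.6 and 13.6 CPM to 17.0, 23.7 and 31.9 CPM with no overlap (0.98 ± 0.29, adjusted p = 0.0069). In C57BL/6J the CD mice were at 1.68, 6.54 and 14.2 CPM and the WD mice at 8.37, 13.9 and 21.7 CPM (1.17 ± 0.30, adjusted p = 0.0018, and 0.88 ± 0.29, adjusted p = 0.014, without CD mouse 2). The difference of mean log2 CPM in C57BL/6J was 1.96 within cohort 1 and 0.34 within cohort 2. Groups did not overlap in A/J (CD 6.79, 6.84, 6.17, 8.76 and 11.1 CPM, WD 12.2 to 17.5 CPM) and PWK/PhJ (CD 4.72 to 7.73 CPM, WD 7.81 to 14.4 CPM), but the test did not pass there (adjusted p = 0.1 and 0.081).

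In CAST/EiJ the Tlr5 estimate was negative but did not pass. The CD mice spread over 3.43, 1.06, 11.8, 2.60, 9.71, 14.6 and 12.1 CPM, so that 3 mice were low and 4 high, and the WD mice were at 1.53, 2.52 and 5.76 CPM. The 4 high CD mice were above all 8 WD mice. The log2 fold change was -1.09 ± 0.45 in limma (adjusted p = 0.075), and -0.96 ± 0.47 (adjusted p = 0.18) without CD mouse 5. Over 10 alternatives it lay between -1.48 and -0.96, with adjusted p from 8.8e-05 to 0.18, and 3 of them called it (edgeR, DESeq2 and sample quality weights). WD minus CD was negative in each of the 3 cohorts that held CAST/EiJ mice, at -0.51, -1.09 and -1.04 in mean log2 CPM. The F test for a difference of the diet effect between strains gave an adjusted p of 0.0038 for Tlr5.

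Of the endosomal receptors, Tlr7, Tlr8, Tlr9 and Tlr13 were all upregulated in PWK/PhJ, C57BL/6J and 129S1/SvImJ. Tlr7, a sensor of single-stranded RNA, was 2.02, 3.45 and 4.81 CPM on CD and 5.20, 6.61 and 8.64 CPM on WD in C57BL/6J. It was 0.893, 1.35 and 1.41 CPM on CD and 2.85, 3.42 and 4.48 CPM on WD in 129S1/SvImJ, again without overlap. In PWK/PhJ it was 0.845, 1.83 and 4.43 CPM on CD and 3.44, 4.46 and 5.79 CPM on WD, with 4 of 7 WD mice above. Log2 fold changes were 1.02 ± 0.16 (adjusted p = 3.2e-07), 1.44 ± 0.24 (1.6e-06) and 1.14 ± 0.21 (1.1e-05), the last being 0.89 ± 0.20 without CD mouse 5 of PWK/PhJ. On CD, median Tlr7 was 0.540 CPM in WSB/EiJ and 0.583 CPM in CAST/EiJ, the low end of the order, against 3.45 CPM in C57BL/6J.

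Tlr8, its neighbour on the X chromosome, had its largest fold change in PWK/PhJ, from 0, 0.638 and 1.45 CPM on CD to 1.42, 1.79 and 3.53 CPM on WD (log2 fold change 2.36 ± 0.43, adjusted p = 8.6e-06). Mouse 5 on CD had 0 Tlr8 reads, where 3 reads would have been 0.0634 CPM, a limit from counting error only. Without it the log2 fold change was 1.32 ± 0.29 (adjusted p = 0.00023), so the fold rests in large part on that mouse. In C57BL/6J Tlr8 was 1.28, 2.28 and 3.49 CPM on CD and 3.90, 4.56 and 5.13 CPM on WD, and in 129S1/SvImJ 1.11, 1.33 and 1.94 CPM and 2.24, 2.68 and 3.43 CPM. No group overlapped its partner in these 2 strains (1.08 ± 0.23, adjusted p = 0.00015, and 0.89 ± 0.30, adjusted p = 0.02). In DBA/2J, whose CD mice had the highest median (3.01 CPM), the log2 fold change was -0.22 ± 0.27.

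Tlr13, the sensor of bacterial ribosomal RNA, was 1.60, 2.54 and 3.27 CPM on CD and 4.76, 5.57 and 6.18 CPM on WD in 129S1/SvImJ, without overlap (log2 fold change 1.14 ± 0.28, adjusted p = 0.00089). In C57BL/6J it was 1.81, 3.96 and 9.31 CPM on CD and 5.55, 7.75 and 11.3 CPM on WD (1.02 ± 0.21, adjusted p = 0.00011). The highest CD mouse there was mouse 2, and without it the value was 1.22 ± 0.22. In PWK/PhJ Tlr13 was 0.444, 2.90 and 5.84 CPM on CD and 4.79, 6.40 and 8.69 CPM on WD (1.54 ± 0.28, adjusted p = 8.9e-06). The lowest CD mouse was mouse 5, without which the value was 1.09 ± 0.25 (adjusted p = 0.00045).

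Tlr9, the CpG DNA receptor, was upregulated in these 3 strains and in WSB/EiJ. In C57BL/6J it was 0.393, 0.875 and 1.34 CPM on CD and 1.22, 1.77 and 2.25 CPM on WD (1.19 ± 0.20, adjusted p = 4.1e-06). In 129S1/SvImJ it was 0.277, 0.369 and 0.759 CPM and 0.666, 1.15 and 1.58 CPM (1.38 ± 0.28, 7.5e-05), and in PWK/PhJ 0.169, 0.390 and 0.966 CPM and 0.772, 1.03 and 1.60 CPM (1.52 ± 0.29, 1.9e-05, and 1.29 ± 0.29 without CD mouse 5). In WSB/EiJ it rested on few reads, 2 to 5 per mouse on CD and 2 to 18 on WD (1.51 ± 0.50, adjusted p = 0.044). WSB/EiJ also had the lowest Tlr9 on CD, with a median of 0.0612 CPM against 0.875 in C57BL/6J.

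Tlr3, the receptor for double-stranded RNA, had the smallest range of fold changes over strains. Its log2 fold change was between 0.16 and 0.42 in the 7 strains, and it passed in PWK/PhJ (0.42 ± 0.12, adjusted p = 0.0035) and CAST/EiJ (0.38 ± 0.11, 0.0098). In PWK/PhJ it went from 6.57, 7.09 and 8.32 CPM on CD to 8.43, 9.78 and 10.8 CPM on WD, without overlap. In CAST/EiJ it went from 4.45, 9.74 and 12.1 CPM to 9.97, 10.8 and 12.4 CPM, and without CD mouse 5 the value was 0.24 ± 0.10 (adjusted p = 0.13). CD mice 6 and 7, of cohort 4 like mouse 5, were at 7.62 and 7.13 CPM. Within cohorts 1, 3 and 4 the difference of mean log2 CPM was 0.10, -0.08 and 0.70, with 1 CD mouse in cohort 1. On CD, Tlr3 was lowest in PWK/PhJ, whose range was apart from that of its neighbour in the order, 129S1/SvImJ (8.71, 9.33 and 12.96 CPM).

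Within groups, several receptors varied together from mouse to mouse. Across the deviations of 93 mice from their group means, Pearson's r was 0.797 between Tlr8 and Tlr13, 0.779 between Tlr4 and Tlr8, 0.742 between Tlr4 and Tlr13 and 0.724 between Tlr7 and Tlr8. Tlr5 had an r between -0.456 and -0.047 with the other 9 receptors. These values share libraries and depth and are given as descriptions. All r values here include PWK/PhJ CD mouse 5, the lowest of its group in Tlr4, Tlr7, Tlr8 and Tlr13. Its Tlr8 was 0 CPM against 0.563 to 1.45 CPM in the rest of the group, and its Adgre1 0.993 against 5.21 to 13.2 CPM. No r without this mouse is given. Over the 12364 genes whose mean log2 CPM was 0 or more, the deviations of Tlr13 were most like those of Fcgr3 (r = 0.864), Ms4a6d (0.849) and Cd68 (0.847), and those of Tlr8 most like C1qc (0.764), Dse (0.760) and Adgre1 (0.755). For Tlr4 they were Fam49a (0.770), Rab8b (0.770) and Adgre1 (0.755), for Tlr7 Ifi207 (0.652), Dock2 (0.651) and Cybb (0.650), and for Tlr9 Pik3cd (0.759), Cybb (0.731) and Nckap1l (0.711). Tlr1 was most like Sirpa (0.741), Cyth4 (0.738) and Nckap1l (0.726), Tlr2 like Sash3 (0.698), Nfkbie (0.684) and Elmo2 (0.674), and Tlr6 like Rap2b (0.625), Ralgds (0.595) and Cd180 (0.594). Tlr5 was close to 5031439G07Rik (0.817) and Mtor (0.808), and Tlr3 like Tnfsf10 (0.571), Nlrc5 (0.568) and Ctbs (0.567).

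Over the 14 group means, Tlr1 and Tlr6 had an r of -0.478. Most like Tlr1 there were Cd72 (0.949), Serpina3f (0.942) and Acvrl1 (0.934), like Tlr2 Cd300lb (0.959), Myof (0.944) and Tnfaip3 (0.940), and like Tlr6 Ccdc126 (0.955), Gm16332 (0.923) and C1s2 (0.913). Tlr7 was most like Ptprc (0.967), the pan-leukocyte antigen, Tlr9 like Ikzf1 (0.971), a lymphoid transcription factor, and Tlr8 like Hip1 (0.935) and Csf1r (0.935). Tlr13 came closest to Tgm2 (0.940), Tlr4 to Atp2b4 (0.933), Tlr3 to Psmb9 (0.911), an immunoproteasome subunit, and Tlr5 to Gdf15 (0.899), a stress-induced secreted factor.

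General macrophage markers moved with most of the receptors, but not with Tlr5. Of 6 general macrophage markers (Adgre1, Csf1r, Cd68, Mpeg1, Lyz2 and C1qa), 6 were higher on WD in 129S1/SvImJ and PWK/PhJ, 5 in C57BL/6J, 2 in WSB/EiJ and CAST/EiJ and 0 in DBA/2J and A/J. Over all genes, 14.5% were higher in 129S1/SvImJ, 15.1% in PWK/PhJ, 14.3% in C57BL/6J and 4.97% in WSB/EiJ. In CAST/EiJ, DBA/2J and A/J these shares were 9.77%, 10.2% and 4.39%. The same shares are the background of the marker lists that follow. Their summed level ran from 160 to 354 CPM on CD and from 476 to 642 CPM on WD in PWK/PhJ, from 241 to 622 and 501 to 908 CPM in C57BL/6J, and from 144 to 277 and 347 to 497 CPM in 129S1/SvImJ. It was 310 to 532 and 308 to 526.1 CPM in DBA/2J, 307 to 464 and 346 to 844 CPM in A/J, 241 to 295 and 269 to 692 CPM in WSB/EiJ, and 184 to 387 and 296 to 411 CPM in CAST/EiJ. Within groups the deviations of this sum had an r of 0.721 with Tlr13, 0.676 with Tlr1, 0.672 with Tlr4, 0.671 with Tlr2, 0.636 with Tlr9, 0.578 with Tlr6, 0.550 with Tlr8, 0.509 with Tlr7, 0.239 with Tlr3 and -0.436 with Tlr5. For the sum of the Kupffer cell markers, r was lower, between -0.078 (Tlr3) and 0.359 (Tlr8). For the sum of the recruited macrophage and monocyte markers it lay between -0.252 (Tlr5) and 0.536 (Tlr1). These r values include PWK/PhJ CD mouse 5, which had the lowest general macrophage sum of its group (160 CPM). The part of these markers in the receptor results was not tested.

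Of 7 markers of recruited macrophages and monocytes (such as Trem2, Spp1, Gpnmb and Ccr2), 7 were higher on WD in C57BL/6J and 129S1/SvImJ, 6 in PWK/PhJ, 4 in WSB/EiJ, 2 in A/J, 1 in CAST/EiJ and 0 in DBA/2J. Trem2 was at 0 to 0.0834 CPM in PWK/PhJ on CD and at 1.18 to 5.17 CPM on WD. Of 7 Kupffer cell markers, 3 were higher in 129S1/SvImJ (Cd5l, Marco and Folr2), 1 each (Cd5l) in C57BL/6J, CAST/EiJ and PWK/PhJ and 0 in the other 3 strains. Clec4f, Vsig4, Timd4 and C6 passed in none. The Kupffer cell counts of C57BL/6J, CAST/EiJ and PWK/PhJ are near the shares over all genes, 14.3%, 9.77% and 15.1%. Hepatocyte markers were lower on WD for 5 of 6 in C57BL/6J and 129S1/SvImJ, 4 in A/J and PWK/PhJ, 3 in DBA/2J and WSB/EiJ and 1 in CAST/EiJ. Over all genes, 11.9% were lower in C57BL/6J, 13.6% in 129S1/SvImJ, 4.64% in A/J and 14.5% in PWK/PhJ. In DBA/2J, WSB/EiJ and CAST/EiJ the shares lower were 7.77%, 3.97% and 9.73%. Neutrophil markers were higher for 3 of 5 in 129S1/SvImJ and PWK/PhJ and at most 1 in the other strains. T and NK cell markers passed for 4 of 5 in 129S1/SvImJ and 0 in the other strains. Of 3 plasmacytoid dendritic cell markers, 3 were higher in C57BL/6J, 2 in 129S1/SvImJ and WSB/EiJ and 1 in A/J and CAST/EiJ. In DBA/2J and PWK/PhJ 0 were higher. Siglech was higher in 4 strains, Bst2 in 3 and Ccr9 in 2. The part of all these marker lists was not tested.

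**Figure D4:**
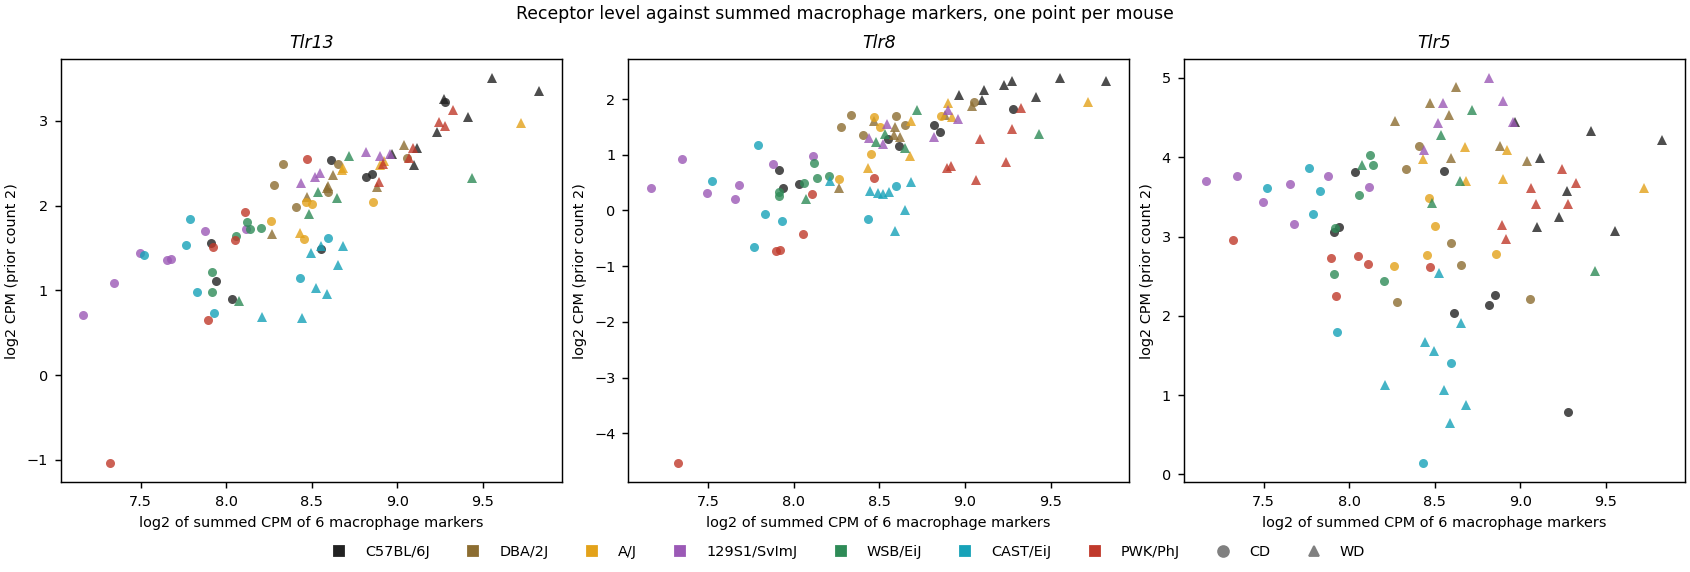
Level of Tlr13, Tlr8 and Tlr5 (y axis, log2 CPM with a prior count of 2) against the log2 of the summed CPM of 6 general macrophage markers (x axis), with 1 point per mouse, colours for strains, circles for CD and triangles for WD. Tlr13 and Tlr8 rise with the markers, with the PWK/PhJ mouse that has the lowest Tlr8 at the lower left, while Tlr5 shows no such rise (r of deviations within groups 0.721, 0.550 and -0.436).

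The 2 further mouse receptors, Tlr11 and Tlr12, endosomal sensors of the parasite protein profilin, were not among the 10. Tlr12 was higher on WD, with log2 fold changes called in C57BL/6J (0.80 ± 0.19), DBA/2J (1.45 ± 0.29), A/J (1.32 ± 0.34) and 129S1/SvImJ (1.53 ± 0.46), with adjusted p between 0.00012 and 0.0075. Tlr11 passed in 1 strain, 129S1/SvImJ (2.16 ± 0.40, adjusted p = 1.5e-05).

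The shares of all genes called in each strain, given with the receptor counts, are also the background for the pathway lists. For genes higher on WD they were 4.39% in A/J, 4.97% in WSB/EiJ, 9.77% in CAST/EiJ, 10.2% in DBA/2J and 14.3% to 15.1% in the other 3 strains.

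Of 6 genes for ligand handling and surface co-receptors, 5 were higher on WD in PWK/PhJ, 4 in C57BL/6J and 129S1/SvImJ, 1 each in DBA/2J, A/J and WSB/EiJ and 0 in CAST/EiJ, and 0 were lower. Cd36, a fatty acid transporter that also serves as a co-receptor of Tlr2 and Tlr4, was higher in 6 strains, with log2 fold changes from 0.73 ± 0.23 in WSB/EiJ to 2.81 ± 0.24 in A/J, and had 0.11 ± 0.21 in CAST/EiJ. Cd14, which hands lipopolysaccharide to Tlr4, had 2.74 ± 0.30 in PWK/PhJ (adjusted p = 1.3e-11), 1.63 ± 0.28 in 129S1/SvImJ (3.7e-06) and 0.77 ± 0.21 in C57BL/6J (0.0039). Cd180, a receptor-like protein, was higher in the same 3 strains. It shares 182 exon bases with Mast4 on the opposite strand, and whether strands were counted apart was not stated.

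Of 10 genes for endosomal delivery and processing, 8 were higher in C57BL/6J, 5 in PWK/PhJ and 129S1/SvImJ, 2 in WSB/EiJ and CAST/EiJ and 1 each in A/J and DBA/2J, while 1 was lower in A/J and 1 in CAST/EiJ. Unc93b1, the chaperone that takes nucleic acid receptors to endosomes, was higher in 5 strains by small amounts, from 0.28 ± 0.09 in PWK/PhJ to 0.38 ± 0.10 in 129S1/SvImJ. Ctss, a protease that cleaves these receptors, had 1.48 ± 0.23 in PWK/PhJ, 0.79 ± 0.21 in C57BL/6J and 1.29 ± 0.23 in 129S1/SvImJ. Slc15a3, an endosomal peptide transporter, was higher in the same 3 strains (1.20 ± 0.23, 0.76 ± 0.14 and 1.04 ± 0.19), and its exons share 1541 bases with Tmem132a on the opposite strand.

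Of the 19 adaptors and kinases, some rose and some fell. Higher were 4 in PWK/PhJ and CAST/EiJ, 3 in 129S1/SvImJ, 2 in C57BL/6J, 1 each in WSB/EiJ and DBA/2J and 0 in A/J. Lower were 3 each in 129S1/SvImJ and DBA/2J, 2 each in CAST/EiJ and A/J and 1 in C57BL/6J. The 4 called higher in PWK/PhJ stand against 15.1% of all genes there, and the 4 in CAST/EiJ against 9.77%. The median log2 fold change of the list lay between -0.05 and 0.07 in the 7 strains. Traf3, which links receptors to interferon signalling, was higher in 5 strains, most in PWK/PhJ (1.08 ± 0.10, adjusted p = 6.5e-14). Ikbke, a kinase of the interferon arm, was higher in CAST/EiJ (0.79 ± 0.19), PWK/PhJ (0.58 ± 0.18) and 129S1/SvImJ (0.48 ± 0.18). Ticam2, an adaptor of Tlr4, was called in 3 strains but was under 1 CPM in every mouse and shares exon bases with Tmed7.

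Of 9 transcription factors, 5 were higher in PWK/PhJ and C57BL/6J, 4 in 129S1/SvImJ, 2 in WSB/EiJ and A/J, 1 in CAST/EiJ and 0 in DBA/2J. Lower were 3 in DBA/2J, 2 in 129S1/SvImJ and 1 each in PWK/PhJ, C57BL/6J and A/J. Nfkb2 was higher in 5 strains (0.42 ± 0.14 in A/J to 1.02 ± 0.14 in 129S1/SvImJ) and Relb, its partner in the non-canonical NF-kB route, in 4 (0.80 ± 0.17 in C57BL/6J to 1.76 ± 0.24 in 129S1/SvImJ). Irf3 was lower in 5 strains by 0.17 to 0.25 on the log2 scale and higher in CAST/EiJ (0.17 ± 0.06, adjusted p = 0.031). Exons of Irf3 and Nfkb2 overlap genes on the opposite strand (Bcl2l12 and Psd).

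Of 10 inhibitors, 4 were higher in 129S1/SvImJ and C57BL/6J, 3 in DBA/2J, 2 in PWK/PhJ and A/J, 1 in WSB/EiJ and 0 in CAST/EiJ, while 2 were lower in PWK/PhJ and C57BL/6J and 1 each in CAST/EiJ and 129S1/SvImJ. In PWK/PhJ these counts are near the shares over all genes, 15.1% higher and 14.5% lower. Tnfaip3, the ubiquitin editor A20 that shuts off NF-kB signalling, was higher in all strains but CAST/EiJ, from 0.65 ± 0.22 in DBA/2J to 1.60 ± 0.19 in 129S1/SvImJ. Tnip1, its binding partner, was higher in 4 strains (0.37 ± 0.11 to 0.68 ± 0.12). Zc3h12a, an RNase that degrades cytokine mRNA, was higher in C57BL/6J (0.56 ± 0.14) and 129S1/SvImJ (0.47 ± 0.17) and lower in CAST/EiJ (-0.58 ± 0.14, adjusted p = 0.0016).

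Of 17 induced cytokine and effector targets, 15 were tested, while Il6 and Ifnb1 had too few reads. Higher were 14 in C57BL/6J, 12 in 129S1/SvImJ and 9 in PWK/PhJ, then 7 in WSB/EiJ, 2 in A/J, 2 in CAST/EiJ and 0 in DBA/2J, and none was lower in any strain. Their median log2 fold change was 2.98 in 129S1/SvImJ and 0.20 in DBA/2J. Ccl2, a monocyte attractant, was higher in 6 strains, from 1.32 ± 0.43 in A/J to 3.98 ± 0.41 in 129S1/SvImJ, and had 0.80 ± 0.39 in DBA/2J (adjusted p = 0.15). Acod1, the enzyme that makes itaconate in activated macrophages, had 5.12 ± 0.76 in 129S1/SvImJ and 4.06 ± 1.01 in WSB/EiJ, and Cxcl2, a neutrophil attractant, 4.03 ± 0.47 in 129S1/SvImJ and 2.20 ± 0.47 in WSB/EiJ. Acod1 had 0 to 5 reads per mouse in WSB/EiJ on CD, and Cxcl2 had 1 to 6 in 129S1/SvImJ on CD.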

How the data were processed

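mRNA of 93 livers was sequenced on a BGISEQ-500. The deposited values were raw counts per Ensembl gene, which the authors made with STAR 2.7.1a (version from the submitters' processing notes) by mapping untrimmed reads to GRCm38, the C57BL/6J genome, whatever the strain. The annotation release and the strand setting are not given in the sources used here. Groups came from the labels, the samples are separate mice, and replicates were numbered in accession order. GENCODE vM21 gave symbols, positions and exon lengths.

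In R 4.3.3, edgeR 4.0.16 (filterByExpr, minimum count 10, 19110 genes kept; TMM factors between 0.810 and 1.27) and limma 3.58.1 (voom, 1 fit of 14 group means) were used. WD against CD was tested within strains, adjusted by Benjamini-Hochberg over the genes tested (threshold 0.05), and F tests over strains used the same fit. The prior count of log2 CPM was 2. Alternatives included DESeq2 1.42.0, edgeR's quasi-likelihood test, other filters, sample weights, cohort as a covariate, separate fits and leaving out mice. The fit was tested on simulated data.

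Members and gene lists were chosen with earlier results of these data known. All 10 members were named. From each pathway list the 3 genes called in most strains were named (ties by mean size of log2 fold change), and for likeness the 3 genes of highest r. Some genes and 1 marker list chosen by these rules are not reported here.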

Additional observations from a re-analysis of the deposited data

Results flagged for a closer look

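In 10 of the 140 combinations of receptor and group, 1 mouse lay far from the others on the log2 scale by Dixon's test, where chance alone marks about 1 group in 20. The PWK/PhJ mouse 5 on CD accounted for 3 of them, with Tlr2 at 1.54 CPM, Tlr4 at 0.359 CPM and Tlr8 at 0 CPM. In DBA/2J on WD, mouse 4 had Tlr8 at 1.29 CPM, below its group, and Tlr9 at 0.834 CPM, above it. Single mice stood out in C57BL/6J on WD (mouse 3, Tlr3 at 16.1 CPM, above), 129S1/SvImJ on CD (mouse 3, Tlr7 at 0.893 CPM, below), CAST/EiJ on CD (mouse 5, Tlr7 at 1.91 CPM, above), A/J on WD (mouse 3, Tlr9 at 2.07 CPM, above) and WSB/EiJ on CD (mouse 3, Tlr9 at 0.131 CPM, above).

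The diet effect differed between the 7 strains by the F test in the limma fit for 8 receptors. The adjusted p was 0.0027 for Tlr1, 0.00014 for Tlr2, 0.0048 for Tlr4, 0.0038 for Tlr5, 9.4e-05 for Tlr7, 5e-05 for Tlr8, 0.0015 for Tlr9 and 0.00038 for Tlr13.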

How the results depend on the processing

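The counts of receptors higher on WD in C57BL/6J, DBA/2J and 129S1/SvImJ stayed within 1.5 times under every alternative run, and so did the 10 whose level differed between strains on CD. In A/J the 1 called became 0 under either other filter (genes of any count, or 10 or more reads in all mice) and with cohort as a covariate, 3 with sample quality weights and with a separate fit for each strain, and 2 with DESeq2, and it lay between 0 and 1 when 1 CD mouse was left out. In WSB/EiJ the 2 became 1 under either filter, 4 with DESeq2 and 0 with a separate fit. In CAST/EiJ the 3 became 1 with edgeR, DESeq2, genes of any count and cohort as a covariate, and 0 with a separate fit and without CD mouse 5. There, 1 receptor (Tlr5) was called lower with edgeR, DESeq2 and sample quality weights. With 10 or more reads in all mice, Tlr1, Tlr8 and Tlr9 were not tested, so they could not be called. Tlr1 was the receptor called in A/J, and Tlr9 was 1 of the 2 in WSB/EiJ. Under this filter 5 were called in PWK/PhJ and 5 for a diet effect that differs between strains. The causes of the other changes were not tested. For the 33 called receptor effects and Tlr5 in A/J, CAST/EiJ and PWK/PhJ, 344 values were recomputed, of which 316 kept their side of the threshold, 21 lost it and 7 passed it. Over all 70 receptor effects and 1168 recomputed values, 15 changed sign, in 6 effects, and 0 of these were called on either side. The 3 runs without 1 mouse of PWK/PhJ, C57BL/6J or CAST/EiJ were chosen after seeing the data. The cohort covariate was not run for levels between strains, since WSB/EiJ shared no cohort with another strain. Within cohorts, 31 of 33 called effects had the same direction in every cohort, all but Tlr3 and Tlr6 in CAST/EiJ. No paired analysis was possible because the labels number no replicates. Counting error limits Tlr9 and Tlr1, the receptors with the fewest reads.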
